A study of Homo sapiens with 9 samples.

Results

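The nuclear-encoded subunits of the mitochondrial respiratory chain were followed through the 3 groups of A549 arrays as a set of 57 genes: 35 subunits of complex I, 4 of complex II, 8 of complex III and 10 of complex IV. A gene was taken as measured when a probe of the array design cited a RefSeq transcript of that gene, and 1 probe stood for each gene, the one with the highest mean signal over the 9 arrays. All 57 genes were matched, by 75 probes, among 21739 gene names that the design's RefSeq accessions gave, and all 57 were detected on all 9 arrays.

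The A549 line derives from a human adenocarcinoma of the lung. It was transduced with pMXs retroviruses that carry OCT3/4, SOX2 and KLF4 (OSK), the dome-shaped colonies that followed were picked and subcultured, and a short trypsin treatment then separated the spindle-shaped cells that came off first (OSK-A549-SN) from the colony cells left on the dish (OSK-A549-Colony). The study regards OSK-A549-Colony as induced lung cancer stem-like cells and OSK-A549-SN as differentiated cells without stem-like character, and it compared both with parental A549 that had received no virus. RNA of 3 samples per group was hybridised to 1-colour Agilent arrays. The parental samples were at passages 98, 98 and 99 and all transduced samples at higher passages, so transduction and passage cannot be told apart in a comparison with parental A549. Likewise the subculture of picked colonies is common to both transduced groups, and OSK-A549-Colony and OSK-A549-SN differ by their order of detachment. The colonies were mixed in cell shape, so in these bulk RNA samples fewer cells of a type and less RNA per cell cannot be told apart. The methods describe independent transductions, but the labels do not say which samples were separate cultures, so p-values measure the spread between these samples only.

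The respiratory chain moves electrons from NADH through complex I, or from succinate through complex II, to ubiquinone, and on through complex III and cytochrome c to oxygen at complex IV. Complexes I, III and IV pump protons, which ATP synthase uses to make ATP. Complexes I, III and IV are each built from mitochondrially encoded catalytic or membrane subunits and many nuclear-encoded ones, whereas complex II, which is also an enzyme of the citric acid cycle, is nuclear-encoded throughout. The 13 mitochondrially encoded subunits were not analysed here.

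In the RefSeq promoter table (GRCh38.p14), 58 windows of 300 bases, from 250 before to 50 after a start site, belonged to 50 of the 57 genes. They were searched on both strands for 4 motifs that are known from promoters of such genes. The NRF1 motif (GCGCA and GCGC with any base between) was in 12 of the 58 windows (20.7%), against 5.78% of all 35116 windows in the table. The ETS motif that GABP recognises (CCGGAAG) was in 15 (25.9%), against 10.3%. The YY1 motif (AAGATGGC) was in 9 (15.5%), against 2.89%, and the short SP1 motif (GGGCGG) was in 36 (62.1%), against 45.0%. At least 1 of the NRF1, ETS and YY1 motifs was in 30 of the 58 windows (51.7%), against 17.0% of all windows, and matches of different motifs shared bases in 1 window. These matches describe letters in the windows and nothing was measured at them.

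The 250 bases before the start site are printed for SDHA, SDHD and NDUFA5, the 3 genes named in every comparison, because they show how unlike the windows of genes of this set were. Capitals mark matches of the NRF1, ETS or YY1 motif on either strand. SDHA, on the plus strand at chr5:218070-218319, held 4 NRF1 matches, SDHD, on the plus strand at chr11:112086623-112086872, held 1 NRF1 and 1 ETS match, and NDUFA5, on the minus strand at chr7:123557819-123558068, held none. The table had 2 other NDUFA5 windows farther upstream, which overlap each other and also held none.
SDHA: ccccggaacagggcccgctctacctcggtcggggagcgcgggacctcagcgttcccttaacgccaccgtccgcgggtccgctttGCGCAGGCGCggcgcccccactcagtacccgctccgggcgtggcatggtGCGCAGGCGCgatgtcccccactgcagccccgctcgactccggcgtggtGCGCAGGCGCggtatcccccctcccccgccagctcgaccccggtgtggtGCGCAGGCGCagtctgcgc
SDHD: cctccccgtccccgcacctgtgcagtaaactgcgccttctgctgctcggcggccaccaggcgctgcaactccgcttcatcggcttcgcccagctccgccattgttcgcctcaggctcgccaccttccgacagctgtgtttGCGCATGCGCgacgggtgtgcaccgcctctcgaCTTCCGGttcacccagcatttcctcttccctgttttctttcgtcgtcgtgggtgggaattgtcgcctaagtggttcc
NDUFA5: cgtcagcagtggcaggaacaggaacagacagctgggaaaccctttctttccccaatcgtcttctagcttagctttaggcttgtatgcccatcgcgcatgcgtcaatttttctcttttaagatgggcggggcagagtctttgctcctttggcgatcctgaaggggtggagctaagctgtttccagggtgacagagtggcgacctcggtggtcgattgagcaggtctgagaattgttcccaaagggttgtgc

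Levels are given as log2 of the processed spot intensity minus the array's 75th percentile, so a value of 0 is the 75th percentile of that array. Processed intensities of the 57 genes ran from 1049 to 79231, against a lowest signal well above background of 7.91 to 13.5 on the 9 arrays, and no spot was saturated. Gene means over the 9 arrays lay between 2.66 and 8.21, with a median of 5.94, so every gene of the set was above the 75th percentile. Several of these genes, SDHA among them, have near-identical copies elsewhere in the genome, so a probe may also have caught RNA of a copy. Where a gene had other probes (18 probes of 13 genes), 17, 18 and 13 of the 18 had the sign of the chosen probe in the comparisons of OSK-A549-Colony with parental A549, of OSK-A549-Colony with OSK-A549-SN and of OSK-A549-SN with parental A549. NDUFC2 disagreed most: its chosen probe gave a log2 fold change of -0.03 and its other probe 0.58 in OSK-A549-Colony against parental A549.

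As a check of the cells, the epithelial markers CDH1, EPCAM, KRT7, KRT8, KRT18, KRT19, CLDN4, CLDN7 and OCLN were detected on all arrays of OSK-A549-Colony and parental A549. The fibroblast genes COL1A2, COL3A1, THY1 and PDGFRB and the endothelial gene PECAM1 were detected on none of these. On all 9 arrays, 9 of 10 epithelial, 7 of 14 mesenchymal, 2 of 6 endothelial (CDH5 and VWF) and 4 of 6 leukocyte markers were detected. The arrays held 25808 to 29315 detected probes, and 8 of the 9 shared 1 slide, with OSK-A549-SN replicate 3 alone on the other.

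The subunit genes varied little beside all detected probes, and much of what varied was shared. All 57 lay above the 75th percentile, and their spread was not compared with that of probes of like level. The median SD of a gene within a group was 0.16 log2 units in parental A549, but 0.04 in OSK-A549-Colony, and it was 0.11 in OSK-A549-SN, against 0.21, 0.09 and 0.16 over the 23758 probes detected on all arrays. Parental replicate 3 was the highest array of its group for 43 of the 57 genes and parental replicate 2 the lowest for 43. Within OSK-A549-SN, replicate 2 was highest for 47 genes, and replicate 3, the array on its own slide, was lowest for 42. The exceptions were few: parental replicate 3 was lowest of its group for NDUFA5, NDUFA12, NDUFB3, NDUFS1, NDUFS4, SDHB, SDHD, UQCRB, COX6C and COX7B, and OSK-A549-SN replicate 3 was highest for NDUFB5, SDHA, SDHC, SDHD and UQCRC2.

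Set against each gene's own mean over the 9 arrays, the median of the 57 genes was 0.01, -0.07 and 0.16 on parental replicates 1, 2 and 3. It was -0.05, -0.08 and -0.06 on the OSK-A549-Colony arrays and 0.05, 0.14 and -0.10 on the OSK-A549-SN arrays. The 3 OSK-A549-Colony arrays thus lay close together, below 2 of the 3 arrays of either other group, while the ranges of the medians overlapped because parental replicate 2 and OSK-A549-SN replicate 3 were as low. Over all probes detected on all arrays the same medians were -0.04, -0.07 and 0.08, then -0.03, -0.01 and -0.01, and then 0.02, 0.06 and -0.03, so the high and low parental and OSK-A549-SN arrays of the subunit genes were also those of the whole array. Complex IV had the widest range of the 4 complexes, from -0.12 on OSK-A549-SN replicate 3 and -0.04 on parental replicate 2 to 0.30 on parental replicate 3. Complex II did not share the low value of OSK-A549-SN replicate 3, where its median was 0.11.

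**Figure D1:**
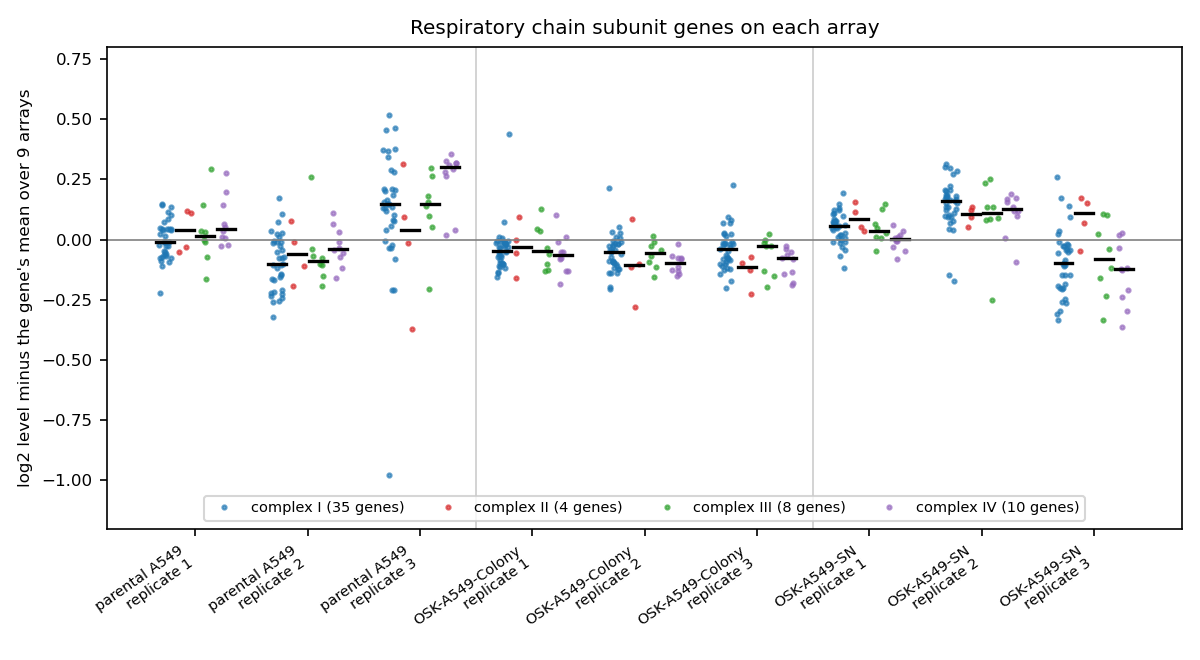
Level of each of the 57 subunit genes on each of the 9 arrays, as log2 level minus the gene's own mean over the 9 arrays. Points are genes, coloured by complex, and black bars are the median of a complex. Parental replicate 3 and OSK-A549-SN replicate 2 sit high (medians of all 57 genes 0.16 and 0.14) and the 3 OSK-A549-Colony arrays sit close together (-0.05, -0.08 and -0.06).

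The first comparison asked whether subunit genes differed between OSK-A549-Colony cells and the parental line. No gene of the set passed an adjusted p of 0.05 in limma (0 of 57), whereas 2783 of the 30864 probes tested did (9.02%), 1143 of them with a fold change over 2 (3.7%). Unadjusted, 4 of the 57 genes had p under 0.05, all of them lower in OSK-A549-Colony: SDHA, NDUFA3, COX5B and COX7B. Over all probes 30.1% reached that level, and 14.9% did so with a lower value. Of the 57 genes, 45 had a lower mean in OSK-A549-Colony and 12 a higher one, against 52.8% and 47.2% of all probes, and the median log2 fold change was -0.10, against -0.03 over all probes. The 3 arrays of a group did not overlap those of the other for 21 genes, 17 below and 4 above, against 41.6% of all probes (20.7% below and 20.9% above).

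The fold changes were small and their 95% intervals narrow. An interval typically reached 0.29 log2 units, a factor of 1.23, to either side of the fold change (median of the 57 genes). The interval lay within a 2-fold change either way for 56 of the 57 genes, with NDUFA5 as the exception, and within a 1.5-fold change for 50. Over all probes tested the shares were 64.5% and 32.3%, and among probes detected on all 6 arrays, as these genes were, 78.3% and 40.9%. Probes of like level were not set apart.

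Complex II, whose subunits oxidise succinate, held both the lowest and one of the highest values. SDHA, the flavoprotein that binds succinate, was at 5.37, 5.34 and 5.58 on the parental arrays, at 5.10, 4.98 and 5.04 on the OSK-A549-Colony arrays and at 5.30, 5.32 and 5.33 on the OSK-A549-SN arrays. Every OSK-A549-Colony array was below the 6 others. The log2 fold change against parental A549 was -0.39 (SE 0.11, 95% interval -0.66 to -0.12, n = 3 and 3, limma adjusted p = 0.0818), a fold of 0.763. The 3 other probes of SDHA gave -0.37, -0.36 and -0.30, with limma adjusted p-values of 0.0959, 0.102 and 0.177. SDHA passed the threshold in 4 alternatives: with all 9 arrays in 1 limma fit (adjusted p = 0.0357), with probes detected on all arrays (0.0495), with normexp background correction (0.0284) and with quantile normalization (0.0403). It did not pass with any array left out, where the limma adjusted p ran from 0.0591 to 0.255 and the log2 fold change from -0.43 to -0.32.

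SDHB, the iron-sulfur subunit that takes the electrons from SDHA, was at 4.21, 4.08 and 4.07 in parental A549, at 4.03, 3.99 and 3.96 in OSK-A549-Colony and at 4.20, 4.21 and 4.04 in OSK-A549-SN. Its OSK-A549-Colony arrays too were below the 6 others, by little, and the log2 fold change against parental A549 was -0.13 (SE 0.09), or -0.08 without parental replicate 1. The membrane anchors that hold the ubiquinone site did not lie that way. SDHC was at 4.54, 4.37 and 4.66 in parental A549 and at 4.56, 4.45 and 4.47 in OSK-A549-Colony, a log2 fold change of -0.03 that was 0.04 without parental replicate 3 and -0.10 without parental replicate 2. SDHD was at 2.82, 2.76 and 2.50 in parental A549 and at 2.97, 2.96 and 2.80 in OSK-A549-Colony, a log2 fold change of 0.22 (SE 0.13, limma adjusted p = 0.311), and its 2 other probes gave 0.20 and 0.17. Without parental replicate 3 it was 0.12. The SDHC arrays of the groups overlapped fully, and those of SDHD overlapped by 1 array, with parental replicate 3 the lowest of all 9. The catalytic pair thus had a median of -0.26 and the anchor pair of 0.09.

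In complex I, the NADH dehydrogenase, the median log2 fold change against parental A549 was -0.06, with 10 of 35 genes higher. The 6 core subunits measured (NDUFS1, NDUFS3, NDUFS7, NDUFS8, NDUFV1 and NDUFV2), among them those that carry the flavin and the iron-sulfur clusters, had a median of -0.05 and ran from -0.18 for NDUFV2 to 0.12 for NDUFS8. The 12 accessory subunits of the NDUFA series had a median of -0.07, and the 13 of the NDUFB and NDUFC series, which lie in or at the membrane arm, of -0.10 with 11 lower. Without parental replicate 3 the 3 medians were 0.04, 0.02 and -0.06, with NDUFV2 at -0.09 and NDUFS8 at 0.25, and without parental replicate 2 they were -0.12, -0.16 and -0.17, with NDUFS8 at 0.04. The widest spread was in the NDUFA series.

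NDUFA5, an accessory subunit of the matrix arm, had the highest fold change of the 57 genes in this comparison. It was at 3.38, 3.27 and 2.27 in parental A549, at 3.68, 3.46 and 3.47 in OSK-A549-Colony and at 3.44, 3.07 and 3.16 in OSK-A549-SN. The OSK-A549-Colony arrays were above the 6 others, the only such gene of the set, but parental replicate 3 was far below its group. The log2 fold change of 0.56 therefore had an SE of 0.31 and an interval of -0.22 to 1.34 (limma adjusted p = 0.287), and with single arrays left out it ran from 0.21 to 0.77. NDUFA3, a small accessory subunit of the membrane arm, had the lowest value of complex I, at 5.56, 5.59 and 5.89 in parental A549 and 5.38, 5.31 and 5.31 in OSK-A549-Colony (log2 fold change -0.35, SE 0.12, limma adjusted p = 0.134). Its groups did not overlap, and parental replicate 3 was again the array farthest out, here on the high side. NDUFA2, a thioredoxin-like accessory subunit, had a log2 fold change of -0.30, with 6.34 on parental replicate 3 against 5.87 and 5.86 on the other parental arrays, and without parental replicate 3 it was -0.14. Higher means in OSK-A549-Colony were those of the membrane-arm subunit NDUFB2 (log2 fold change 0.19), NDUFA12 (0.13) and NDUFA9 (0.12), with limma adjusted p-values of 0.347, 0.419 and 0.448. Single parental arrays set their size: without parental replicate 2 NDUFB2 was at 0.09 and NDUFA9 at 0.06, and without parental replicate 3 NDUFA12 was at 0.08.

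In complex III, which passes electrons from ubiquinol to cytochrome c, the median was -0.09 with 1 of 8 genes higher. UQCRH, the hinge protein that helps complex III meet cytochrome c, was at 7.49, 7.43 and 7.77 in parental A549, at 7.40, 7.39 and 7.37 in OSK-A549-Colony and at 7.51, 7.64 and 7.52 in OSK-A549-SN. UQCRC2, a core protein, was at 4.92, 4.74 and 4.83, then at 4.72, 4.62 and 4.63, and then at 4.81, 4.86 and 4.88 in the same order. For both, the OSK-A549-Colony arrays were below the 6 others, and the log2 fold changes against parental A549 were -0.18 and -0.17, but that of UQCRH was -0.07 without parental replicate 3. UQCRC1, the other core protein, was the gene of this complex with a higher mean (0.08), which ran from 0.02 to 0.17 without parental replicate 2 and without parental replicate 3.

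In complex IV, cytochrome c oxidase, all 10 genes had a lower mean in OSK-A549-Colony, from -0.32 for COX5B to -0.09 for COX4I1, with a median of -0.17. The nuclear-encoded subunits surround the mitochondrially encoded core that holds the hemes and copper. COX5B, which binds zinc, was at 6.40, 6.23 and 6.56 in parental A549, at 6.12, 6.07 and 6.02 in OSK-A549-Colony and at 6.24, 6.32 and 5.84 in OSK-A549-SN. The groups of this comparison did not overlap, whereas OSK-A549-SN replicate 3 was below all OSK-A549-Colony arrays. COX7B was at 6.55, 6.47 and 6.42 in parental A549, at 6.27, 6.26 and 6.22 in OSK-A549-Colony and at 6.42, 6.59 and 6.43 in OSK-A549-SN. COX5A was at 7.05, 6.94 and 7.31, then at 6.83, 6.89 and 6.88, and then at 7.01, 7.19 and 7.03. For COX7B and COX5A every OSK-A549-Colony array was below the 6 others, with log2 fold changes against parental A549 of -0.23 for each and limma adjusted p-values of 0.164 and 0.274. The value of COX5A was -0.13 without parental replicate 3.

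These medians depended on single parental arrays, in opposite directions. Without parental replicate 3 the number of the 57 genes with a higher mean in OSK-A549-Colony was 24 in place of 12. The median of complex I was then 0.0022 in place of -0.06 with 18 of 35 genes higher, that of complex III was -0.03 in place of -0.09 with 2 of 8 higher, and that of complex IV was -0.11 in place of -0.17 with 2 of 10 higher, and COX4I1 was at 0.03 in place of -0.09. The median of the 57 genes was then -0.05. Without parental replicate 2 the number with a higher mean was 7, the median of the 57 genes was -0.16, and those of complexes I, II and III were -0.12 (5 of 35 higher), -0.13 and -0.16, with complex IV at -0.23. With quantile normalization complex III was at -0.06.

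Some markers of cell type differed between the same groups, where 9.02% of all probes were called. The epithelial cadherin CDH1 was called lower in OSK-A549-Colony (log2 fold change -0.996, limma adjusted p = 0.0318), with 3 of 10 epithelial markers higher and a median of -0.30. Of 9 mesenchymal markers tested 6 were higher and none was called, with a median of 0.41. Of 5 leukocyte markers tested CD68 and ITGAM were called higher (1.04 and 0.81), while the other 3 had lower means and the median was -0.57. The size of these medians depended on the background correction: with normexp they were -0.16 for the epithelial, 0.07 for the mesenchymal and -0.18 for the leukocyte markers. Without parental replicate 1 they were -0.19, 0.04 and 0.06. Of the 23 proliferation genes the cyclin CCNB2 was called lower (-0.54, limma adjusted p = 0.0459), and 12 had a higher mean, with a median of 0.0040 that was 0.12 without parental replicate 1 and -0.10 without parental replicate 3. The part of these genes in the values of the subunit genes was not tested.

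Taking the 9 arrays as a whole, the 3 OSK-A549-Colony arrays were below all 6 others for 6 of the 57 genes (SDHA, SDHB, UQCRC2, UQCRH, COX5A and COX7B), against 6.64% of 33075 probes, and above all 6 for NDUFA5 alone, against 6.69%. These are few genes to set against such shares. The order of the group means was OSK-A549-Colony lowest for 37 genes, in 20 of which parental A549 was highest and in 17 of which OSK-A549-SN was. In the limma F test across the 3 groups, which called 3778 of 33083 probes (11.4%), no gene of the set was called. At an unadjusted p under 0.05 there were 3 (SDHA, NDUFA6 and NDUFS4, with F test adjusted p-values of 0.0791, 0.0804 and 0.139), against 30.5% of all probes.

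**Figure D2:**
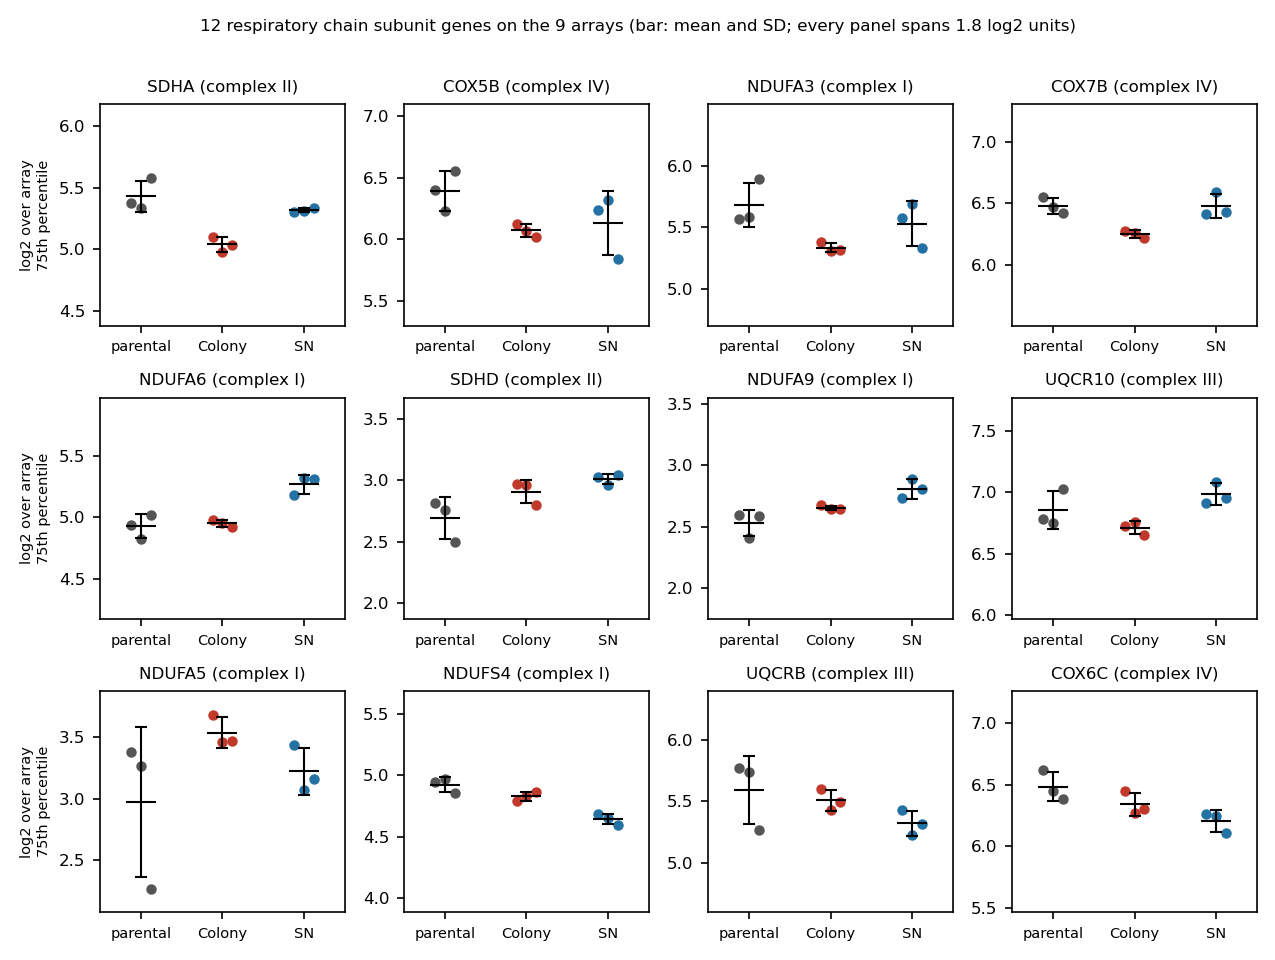
Levels of 12 subunit genes on the 9 arrays, as log2 over the array's 75th percentile, with the mean and SD of each group of 3. Every panel spans the same number of log2 units. For SDHA and COX7B all OSK-A549-Colony arrays lie below the 6 others, for NDUFA6 the OSK-A549-SN arrays lie above the 6 others, and for NDUFA5 1 parental array at 2.27 sets the wide error bar.

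The second comparison set OSK-A549-Colony against the OSK-A549-SN cells, those that had detached first. Limma called none of the 31746 probes tested (0.0%), with a smallest adjusted p of 0.0930, so the 0 calls among the 57 genes say nothing about them in particular. This fit did not take same-numbered samples as pairs. The count over all probes depended on the setting. With probes detected on all arrays it was 648 of 24599, with normexp 546 and with all 9 arrays in 1 fit 9. The number of the 57 genes called was 0 in each. At an unadjusted p under 0.05, which 6181 probes reached (19.5%), there were 5 genes of the set, all lower in OSK-A549-Colony: NDUFA6, SDHA, UQCR10, NDUFB5 and COX7B. Lower values at that level made up 10.7% of all probes. Of the 57 genes 47 had a lower mean in OSK-A549-Colony and 10 a higher one, against 58.1% and 41.9% of all probes, with a median of -0.10, against -0.06. Groups did not overlap for 20 genes, 16 below and 4 above, against 30.8% of probes (17.3% below and 13.5% above).

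NDUFA6, an LYR-motif accessory subunit of complex I, was at 4.98, 4.95 and 4.92 in OSK-A549-Colony, at 5.18, 5.32 and 5.31 in OSK-A549-SN and at 4.94, 4.83 and 5.02 in parental A549. Here the OSK-A549-SN arrays stood above the 6 others and the remaining groups overlapped. The log2 fold change of OSK-A549-Colony against OSK-A549-SN was -0.32 (SE 0.08, 95% interval -0.52 to -0.12, limma adjusted p = 0.153). For SDHA, at the levels given above, it was -0.27 (SE 0.08, interval -0.47 to -0.08, limma adjusted p = 0.171), and the other 3 probes gave -0.17, -0.20 and -0.22. UQCR10, a small subunit of complex III, was at 6.73, 6.76 and 6.66 in OSK-A549-Colony and 6.91, 7.09 and 6.96 in OSK-A549-SN (log2 fold change -0.27), with other probes at -0.13 and -0.27. NDUFB5, of the membrane arm, was at 3.79, 3.64 and 3.76 against 3.90, 3.97 and 4.01 (-0.23), but its other probe gave -0.04. COX7B had a log2 fold change of -0.23. With the chosen probes, none of these 5 genes overlapped between the groups.

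On the other side were NDUFA5, UQCRB, NDUFS4 and COX6C, whose OSK-A549-Colony arrays were all above those of OSK-A549-SN. NDUFS4, an accessory subunit needed to complete the NADH-oxidising end of complex I, was at 4.79, 4.83 and 4.87 in OSK-A549-Colony, at 4.68, 4.65 and 4.60 in OSK-A549-SN and at 4.95, 4.97 and 4.86 in parental A549. OSK-A549-SN was thus lowest without overlap. The log2 fold change was 0.19 (SE 0.08, interval -0.01 to 0.38). UQCRB, which lies near the ubiquinone site of complex III, was at 5.60, 5.43 and 5.50 against 5.43, 5.22 and 5.32, also 0.19, though its other probe gave 0.04. The lowest UQCRB array of OSK-A549-Colony and the highest of OSK-A549-SN differed by less than the SD of either group. COX6C was at 6.45, 6.27 and 6.30 against 6.26, 6.25 and 6.10 (0.13, or 0.08 without OSK-A549-Colony replicate 1 or OSK-A549-SN replicate 3), and NDUFA5 had a log2 fold change of 0.31 (SE 0.13, interval -0.02 to 0.64).

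By complex, the medians of this comparison were -0.10 for complex I (6 of 35 genes higher), -0.17 for complex II (0 of 4), -0.08 for complex III (2 of 8) and -0.06 for complex IV (2 of 10). SDHC and SDHD, at -0.19 and -0.10 (-0.05 for SDHD without OSK-A549-Colony replicate 3), lay on the same side as SDHA and SDHB here, though the other probes of SDHC gave -0.08 and -0.0097. The 95% interval was within a 2-fold change for all 57 genes and within a 1.5-fold change for 56, against 73.1% and 47.6% of all probes tested and 88.7% and 60.6% of those detected on all 6 arrays. With quantile normalization the median of the 57 genes was nearer 0, at -0.02 with 26 genes higher, and that of complex IV turned to 0.04, while those of complexes I, II and III were -0.02 (16 of 35 higher), -0.10 and -0.0026 (4 of 8 higher). With OSK-A549-SN replicate 2 left out, the median was -0.04 with 21 genes higher, and those of complexes I, III and IV were -0.04, -0.03 and 0.02. With replicate 3, the array on its own slide, left out, the median was -0.16 with 4 genes higher, and those of complexes I, III and IV were -0.16, -0.16 and -0.15.

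Of 23 proliferation genes tested in this comparison, none was called and 22 had a lower mean in OSK-A549-Colony, with a median of -0.31 and no overlap for 20, and the mitotic kinase AURKB was lowest at -0.60 (limma adjusted p = 0.106). Their part in the values of the subunit genes was not tested.

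The third comparison set OSK-A549-SN against parental A549. No gene of the set was called in limma, while 586 of 32218 probes were (1.82%), 498 with a fold change over 2 (1.55%). The count over all probes moved as arrays were left out. It was 0 without OSK-A549-SN replicate 1 or 2 and 190 without OSK-A549-SN replicate 3. Without parental replicates 1, 2 and 3 it was 44, 2 and 158. With all 9 arrays in 1 fit it was 3200, and none of these fits called a gene of the set. At an unadjusted p under 0.05 there was 1 gene, NDUFA6, against 21.6% of probes. The set divided evenly, with 29 genes higher and 28 lower and a median of 0.01, against 57.3% and 42.7% of all probes and a median of 0.08. The groups did not overlap for 7 genes, 4 above and 3 below, against 32.1% of probes. The sign of the median changed with the scaling: it was -0.02 with median scaling, -0.0027 with normexp and -0.08 with quantile normalization. All 23 proliferation genes tested had a higher mean in OSK-A549-SN, with a median of 0.36 and no overlap for 12, and their part in these values was not tested.

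NDUFA6 was higher in OSK-A549-SN by a log2 fold change of 0.34 (SE 0.13, interval 0.03 to 0.65, limma adjusted p = 0.199). SDHD was at 3.03, 2.96 and 3.04 in OSK-A549-SN, above all 3 parental arrays, with a log2 fold change of 0.32 (SE 0.14, interval -0.02 to 0.66). NDUFA9, a matrix-arm subunit related to short-chain dehydrogenases, was at 2.73, 2.89 and 2.80 in OSK-A549-SN against 2.60, 2.41 and 2.58 (0.28, SE 0.13). NDUFA12 followed at 0.22. NDUFA5 had a mean difference of 0.25, which was -0.10 without parental replicate 3.

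The lowest values were those of NDUFA2 (-0.29), NDUFS4 (-0.28), COX6C (-0.28), UQCRB (-0.27) and COX5B (-0.26), with limma adjusted p-values from 0.241 to 0.441. Only NDUFS4 and COX6C of these 5 had no overlap between the groups. The other 3 depended on single arrays. NDUFA2 was at -0.13 without parental replicate 3 and at -0.17 without OSK-A549-SN replicate 3, and COX5B was at -0.12 without the latter. UQCRB was at -0.43 without parental replicate 3 and at -0.18 without parental replicate 1. The complex medians were 0.02 for complex I, 0.09 for complex II, 0.01 for complex III and -0.11 for complex IV, in which 1 of 10 genes was higher, COX7A2 at 0.01. Those of complexes I and II turned below 0 with quantile normalization (-0.08 and -0.0031), complexes I and III also with median scaling (-0.0081 and -0.02), and complex III with quantile normalization (-0.04) and normexp (-0.0072). Single arrays moved them as well. Without parental replicate 3 the median of complex IV was -0.01 with 5 of 10 genes higher, and those of complexes I and III were 0.07 and 0.07. Without OSK-A549-SN replicate 3 that of complex IV was -0.03 and that of complex I 0.09. Complexes I and III were below 0 without OSK-A549-SN replicate 2 (-0.02 and -0.04) or parental replicate 2 (-0.03 and -0.07), and complex IV was then at -0.17 and -0.18. The median of complex II was 0.05 without parental replicate 2 and 0.03 with the mean of all probes of a gene. The 95% intervals typically reached 0.37 log2 units to either side, a factor of 1.29, the widest of the 3 comparisons. The intervals were within a 2-fold change for 56 genes and within a 1.5-fold change for 43, against 60.7% and 22.9% of all probes tested and 76.0% and 29.9% of those detected on all 6 arrays.

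**Figure D3:**
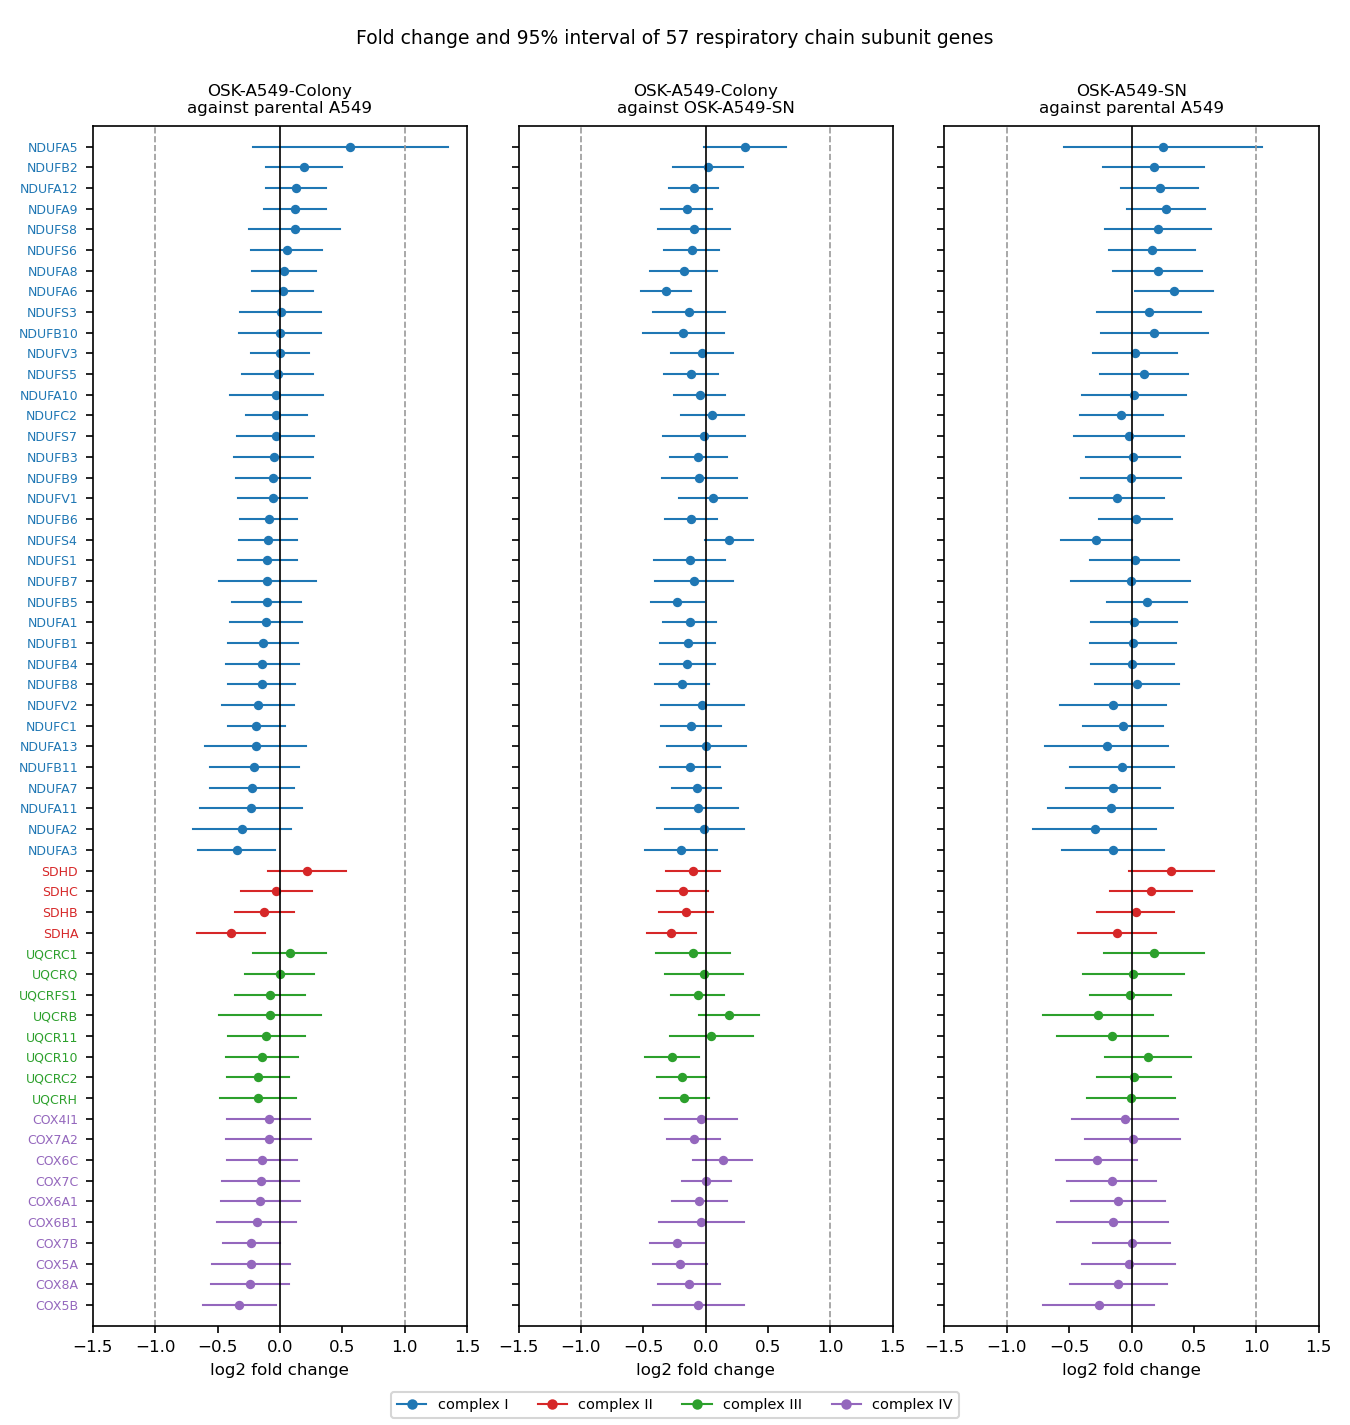
Log2 fold change (points) and 95% interval from limma (lines) of the 57 subunit genes in the 3 comparisons, coloured by complex and ordered by the first comparison. Dashed lines mark a 2-fold change either way. NDUFA5 is the gene whose interval crosses a dashed line (up to 1.34 in the first comparison and 1.04 in the third), and all others stay inside.

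The other genes of oxidative phosphorylation and of mitochondrial gene expression were read from the same fits, with lists of their own. ATP synthase, which uses the proton gradient, resembled the subunit genes. Its 19 genes had medians of -0.05, -0.10 and 0.02 in the 3 comparisons in the order above, with 7, 3 and 11 genes higher and none called, and the last median turned to -0.0036 with median scaling and to -0.03 with quantile normalization, which also put the second at -0.02. Without parental replicate 3 the first was 0.02, and without parental replicate 2 it was -0.12. Without OSK-A549-SN replicate 2 the second and last were -0.02 and -0.03, and without OSK-A549-SN replicate 3 they were -0.17 and 0.11. ATP5MC3, of the proton-carrying c ring, was lowest in the first comparison at -0.36 (SE 0.10, limma adjusted p = 0.0810).

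Among other chain subunits and isoforms, 10 of 14 genes were matched and 8 were tested in the first comparison. COX7B2, an isoform of COX7B, was the 1 gene of these 8 called there, against 9.02% of all probes. It was at -3.53, -3.48 and -2.82 in parental A549, at -2.15, -1.59 and -1.48 in OSK-A549-Colony and at -3.01, -3.20 and -2.74 in OSK-A549-SN, so all its values were far below the 75th percentile. Its log2 fold change was 1.54 (SE 0.27, limma adjusted p = 0.0345), opposite in sign to that of COX7B. Mobile cytochrome c, CYCS, was at 5.10, 4.83 and 4.06 in parental A549, at 5.27, 5.33 and 5.39 in OSK-A549-Colony and at 5.31, 5.19 and 5.44 in OSK-A549-SN, so parental replicate 3 was far below the 8 other arrays. The log2 fold changes against parental A549 were 0.67 for OSK-A549-Colony and 0.65 for OSK-A549-SN (limma adjusted p = 0.175 and 0.259), and without parental replicate 3 they were 0.37 and 0.35.

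Assembly factors, which build the complexes without staying in them, had medians of 0.14, -0.03 and 0.21 over 50 genes, with 33, 20 and 37 higher, and the median of the second comparison turned to 0.02 with quantile normalization, where the third was 0.14. Without OSK-A549-SN replicate 2 these medians were 0.0032 and 0.14, and without OSK-A549-SN replicate 3 that of the second comparison was -0.09. Of these 50 genes 2 were called in the first comparison, against 9.02% of all probes, both lower in OSK-A549-Colony. SDHAF4, which helps mature SDHA join SDHB, was at 0.96, 1.16 and 1.29 in parental A549, at 0.53, 0.38 and 0.27 in OSK-A549-Colony and at 0.89, 1.03 and 0.82 in OSK-A549-SN (log2 fold change -0.74, SE 0.13, limma adjusted p = 0.0346). COA1, an assembly factor of complexes I and IV, was at 3.56, 3.65 and 3.84, then at 3.13, 2.99 and 3.04, and then at 3.27, 3.29 and 3.12 (-0.63, limma adjusted p = 0.0365). For SDHAF4 the OSK-A549-Colony arrays were below the 6 others and those of OSK-A549-SN overlapped the parental arrays, whereas for COA1 both transduced groups were below parental A549 without overlap. The gene with the highest mean difference in the third comparison was BCS1L, which inserts the Rieske protein into complex III (0.67, limma adjusted p = 0.0735).

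The mitochondrial ribosome, which translates the mitochondrially encoded subunits, had higher medians than the subunit genes in both comparisons with parental A549. Of its 78 genes 58, 19 and 71 had higher means in the 3 comparisons, with medians of 0.12, -0.08 and 0.21. With quantile normalization the second of these was -0.03 (30 of 78 higher) and the last 0.10, while the second was -0.04 without OSK-A549-SN replicate 2 and -0.14 without OSK-A549-SN replicate 3. In the first comparison 4 of the 78 were called, against 9.02% of all probes, all higher in OSK-A549-Colony: MRPL3 (log2 fold change 0.70), MRPS30 (0.60), MRPL32 (0.54) and MRPS10 (0.52), with limma adjusted p-values of 0.0304, 0.0334, 0.0403 and 0.0356. MRPL32 is named because it completes the count, after its value was seen. MRPL3 was at 3.45, 3.26 and 3.18 in parental A549, at 3.97, 3.95 and 4.05 in OSK-A549-Colony and at 3.98, 3.89 and 3.88 in OSK-A549-SN, so both transduced groups were above the parental arrays.

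Of 16 genes of the citric acid cycle and pyruvate dehydrogenase, 5, 2 and 10 had higher means, with medians of -0.14, -0.12 and 0.04, the last turning to -0.03 and the second moving to -0.07 with quantile normalization, and the first moving to -0.08 with normexp. The first was -0.02 and the last 0.09 without parental replicate 3, while leaving out OSK-A549-SN replicate 2 put the second at -0.05 and the last at -0.0041. PDHB, a subunit of the enzyme that feeds acetyl-CoA into the cycle, was the 1 gene of the 16 called in the first comparison, against 9.02% of all probes. It was at 4.51, 4.44 and 4.50 in parental A549, at 3.96, 3.99 and 3.95 in OSK-A549-Colony and at 4.15, 4.23 and 4.20 in OSK-A549-SN (log2 fold change -0.51, SE 0.09, limma adjusted p = 0.0330). The 3 groups were fully apart for this gene.

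Regulators of mitochondrial gene expression had medians of 0.18, -0.03 and 0.23 over 15 genes, with 10, 7 and 13 higher, the second turning to 0.01 with quantile normalization and 0.02 with normexp, and the first at 0.10 without parental replicate 3. In the first comparison 1 of the 15 was called, against 9.02% of all probes. This was PPARGC1A, which encodes PGC-1α, a coactivator known for raising expression of respiratory chain genes. It was at 0.43, 0.37 and 0.22 in parental A549, at -0.91, -1.11 and -1.19 in OSK-A549-Colony and at -0.47, -0.23 and 0.05 in OSK-A549-SN. Again the 3 groups did not overlap. The log2 fold change of OSK-A549-Colony was -1.41 against parental A549 (SE 0.12, limma adjusted p = 0.0153) and -0.85 against OSK-A549-SN (limma adjusted p = 0.111).

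Whether these other genes passed the threshold depended on single arrays, in fits with 1 array fewer. For PPARGC1A the log2 fold change stayed between -1.49 and -1.35 in those fits, though 3 of them lost the call. With OSK-A549-Colony replicate 2 left out no probe of the first comparison was called at all, with parental replicate 2 left out 1 probe was, with OSK-A549-Colony replicates 1 or 3 left out 141 and 85, and with parental replicates 1 or 3 left out 2452 and 4182. Over all lists 13 genes were called in the first comparison, against 9.02% of all probes. The lists tested there held 8 other chain subunits, 19 ATP synthase, 50 assembly factor, 78 ribosome, 16 citric acid cycle and 15 regulator genes. They also held 23 proliferation genes and 10 epithelial, 9 mesenchymal, 2 endothelial and 5 leukocyte markers. Of the 13 genes, 1 was still called without OSK-A549-Colony replicate 1, 9 without parental replicate 1 and 12 without parental replicate 3, and none with any other array left out. None of the genes named on these lists was called in the other two comparisons.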

How the data were processed

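Per the labels and the file headers, RNA of 9 samples was hybridised to 1-colour Agilent arrays of 62976 spots and scanned, and the authors deposited the output of Feature Extraction 11.5.1.1, whose processed signal is a background-corrected intensity. They also deposited a table of log2 values, which differed from the log2 processed signal by 1 constant per array and served as an alternative. Here 4259 control spots and the 357 to 484 outlier spots of each array were left out, spots of a probe were averaged, and log2 intensity minus the array's 75th percentile was tested. Genes were named by matching RefSeq accessions, without version, to the RefSeq table of GRCh38.p14. A probe was detected on an array when at least 0.5 of its spots were positive and well above background.

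Each comparison was fitted with limma 3.58.1 (R 4.3.3; lmFit, eBayes) on its own 6 arrays, over probes detected on at least 1, with Benjamini-Hochberg adjustment over all of them, after the study's own filter. The F test used all 9 arrays. Intervals are 95%, and the number of arrays limits their precision. The fits were tested on simulated data. Genes named were, per comparison, those called, the 5 highest and 5 lowest subunit genes, the highest and lowest of each complex, and per other list up to 3 called genes and the highest and lowest; other genes named were chosen after their values were seen. The members and lists were chosen with earlier results of these data known. Samples were grouped by their labels. Alternatives covered background correction, scaling, the detection filter, probe choice, slide, replicate number, moderation and leaving out each array. NDUFA4, NDUFA4L2, COX7A1, UQCRHL, COA8 and PLK1 were not analysed here.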

Additional observations from a re-analysis of the deposited data

How the results depend on the processing

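With 3 arrays per group small differences may have been missed. The interval widths given carry no adjustment for multiple testing, so they are not the limit above which a gene would be called. No subunit gene was called in any comparison with the deposited log2 table, median scaling, no detection filter, the mean of all probes, the slide block, the replicate block or any array left out. In OSK-A549-Colony against parental A549 the number called was 1 (SDHA) in 1 fit of all 9 arrays, with probes detected on all arrays, with normexp and with quantile normalization, and 4 without adjustment for multiple testing. Over all probes the first 4 of these settings called 5027, 4931, 4275 and 3212. Without adjustment the number of subunit genes was 5 with OSK-A549-SN as the other group, and 1 in OSK-A549-SN against parental A549. In the F test it was 3 without adjustment, 3 without moderation (NDUFA6, NDUFS4 and SDHA), 2 with normexp (SDHA and NDUFA6) and 1 with quantile normalization (SDHA). Over all probes the last 3 of these called 3415, 5022 and 4128 of 33083. The median of the 57 genes ran from -0.16 to -0.05, from -0.16 to -0.04 and from -0.07 to 0.06 in the 3 comparisons as single arrays were left out. Between the transduced groups, the slide block turned NDUFV1 to -0.033 and CDH5 to 0.090. In OSK-A549-SN against parental A549, COX7A2 turned to -0.019 with median scaling, -0.0040 with normexp and -0.014 with quantile normalization, CCNB2 to -0.0089, -0.011 and -0.091 with the same and to -0.0025 with the slide block, and VWF to -0.11 with the slide block. The cause was not tested. With single arrays left out, COX4I1 ran from -0.17 to 0.029 in OSK-A549-Colony against parental A549. NDUFV1 ran from -0.033 to 0.13, COX6A2 from -0.44 to 0.16, CCNE2 from -0.039 to 0.15 and CDH5 from -0.41 to 0.090 in OSK-A549-Colony against OSK-A549-SN. NDUFA5 ran from -0.10 to 0.45, COX7A2 from -0.085 to 0.13, CCNB2 from -0.035 to 0.065, VWF from -0.11 to 0.64 and CD14 from -0.53 to 0.29 in OSK-A549-SN against parental A549. Of the 13 genes of other lists called, the replicate block lost 13, no detection filter 12, with PPARGC1A still called, no moderation 8 and quantile normalization 1. The labels do not say that replicate numbers pair the samples, and they were not taken as pairs. In the transduced groups, though, same-numbered samples shared a passage, and the methods collect OSK-A549-SN cells from the dishes of the colonies. If they were pairs, the main fit left the pairing out. The deviations of same-numbered arrays correlated at 0.24, 0.07 and 0.14 between the transduced groups, where each array correlated best with its own number, and at -0.20 to 0.15 in the other comparisons. With the replicate block, calls over all probes fell to 0 in both comparisons with parental A549 and to 1194 in the F test. Between the transduced groups the replicate block called 0 probes, as did the main fit. There 3 of the 57 genes had an unadjusted p under 0.05, in place of 5. The slide block gave no value for OSK-A549-Colony against parental A549, all on 1 slide.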
